A study of Mus musculus with 14 samples.

Results

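Interleukin-2 (IL-2) and the chains of its receptor are encoded in the mouse by 4 genes, Il2, Il2ra, Il2rb and Il2rg. They were taken from the deposited expression tables by gene symbol and RefSeq identifier, as 4 of 23769 genes. Each gene had 1 transcript row in each table: NM_008366 for Il2 on chromosome 3, NM_008367 for Il2ra on chromosome 2, NM_008368 for Il2rb on chromosome 15 and NM_013563 for Il2rg on chromosome X. Their RNA levels are described here over 7 culture media, by whether a medium held IL-2 or an antibody against it.

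IL-2 is the growth factor that activated CD4+ T cells make and respond to. Il2rb and Il2rg encode the β chain and the common γ chain, which bind the kinases Jak1 and Jak3 and together pass the signal on, mainly through the transcription factor STAT5. Il2ra encodes CD25, the α chain, which raises the affinity for IL-2 and is itself known as a target of STAT5. The β chain also serves IL-15, and the γ chain also serves IL-4, IL-7, IL-9, IL-15 and IL-21. Regulatory T cells are known for high CD25 and for making little IL-2.

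Naive CD4+ T cells of C57BL/6 mice were sorted as CD62L high, CD44 low and CD25 negative, so the starting cells were chosen for absence of the Il2ra protein. They were stimulated for 3 days on plates coated with antibodies to CD3 and CD28, at 10 µg/ml each, and RNA sequencing was done on 2 libraries per medium, 14 in all. In the iTreg medium IL-2 was added at 50 U/ml, together with TGF-β at 20 ng/ml and an antibody to IFN-γ. Neither IL-2 nor an antibody to it is named for the Th1 medium, which held IL-12 at 20 ng/ml and an antibody to IL-4 at 10 µg/ml, or for the Th2 medium, which held IL-4 at 20 ng/ml and an antibody to IFN-γ at 10 µg/ml. An antibody to IL-2 was in the remaining 4 media. The IL27_plus_TGF_beta medium held IL-27 at 20 ng/ml, TGF-β at 2 ng/ml and antibodies to IFN-γ, IL-2 and IL-4. The Th17_b medium held TGF-β at 2 ng/ml, IL-6 at 20 ng/ml, an antibody to IFN-γ and an antibody to IL-2 at 10 µg/ml. The Th17_23 medium held IL-1β and IL-6 at 20 ng/ml each, IL-23 at 50 ng/ml, antibodies to IFN-γ and IL-2, and antibodies to TGF-β1 and TGF-β2 at 5 µg/ml each. The Th0 medium held antibodies to IL-2, IL-4 and IFN-γ with no polarizing cytokine. The labels give no dose for the other antibodies, so neutralization of IL-2 cannot be compared between the media. The medium with added IL-2 is also the one with the highest TGF-β dose, and in the class comparisons IL-2 and the other additives cannot be told apart.

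To show the DNA next to which these genes start, the 250 bases before the annotated start of each gene are given from RefSeq for the mouse build GRCm38.p6, 5′ to 3′ on the strand of the gene. An entry was found for 3 of the 4 genes, Il2 (chr3:37125955-37126204, minus strand), Il2ra (chr2:11642542-11642791, plus strand) and Il2rg (chrX:101268256-101268505, minus strand); Il2rb is named only. Capitals mark every match to GGAAA, the core letters bound by NFAT, a factor known to drive Il2 in stimulated T cells, on either strand (TTTCC on the other strand).
Il2: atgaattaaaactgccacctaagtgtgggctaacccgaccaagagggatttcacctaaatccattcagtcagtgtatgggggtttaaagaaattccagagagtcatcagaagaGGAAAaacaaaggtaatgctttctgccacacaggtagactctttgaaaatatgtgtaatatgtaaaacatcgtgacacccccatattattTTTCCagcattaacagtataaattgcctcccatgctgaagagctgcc
Il2ra: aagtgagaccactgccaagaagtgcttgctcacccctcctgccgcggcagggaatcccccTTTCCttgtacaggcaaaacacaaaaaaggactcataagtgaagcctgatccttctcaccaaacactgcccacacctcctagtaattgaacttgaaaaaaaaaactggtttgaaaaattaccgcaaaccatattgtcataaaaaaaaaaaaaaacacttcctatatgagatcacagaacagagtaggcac
Il2rg: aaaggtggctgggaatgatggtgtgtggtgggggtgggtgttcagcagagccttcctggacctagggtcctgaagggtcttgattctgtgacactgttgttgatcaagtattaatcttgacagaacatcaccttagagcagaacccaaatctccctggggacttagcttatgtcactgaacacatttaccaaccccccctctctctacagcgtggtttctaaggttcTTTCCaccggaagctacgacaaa
The Il2 window held GGAAA at -137 to -133 and TTTCC at -47 to -43, counted back from the start. The Il2ra window held TTTCC at -190 to -186 and the Il2rg window at -23 to -19. This core is common: 55.6% of 32851 promoter windows of the same length held it. The letters TGANTCA (AP-1) and TTCNNNGAA (STAT) were also searched on both strands. They were in 6.75% and 7.02% of all windows and in none of these 3.

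Levels are in FPKM, that is, relative to the length of the transcript and to the fragments of the library. This allows only an approximate comparison between genes and between libraries. How the authors scaled the values is not given, and some changes below moved with the normalization. Between 10336 and 10697 genes reached 1 FPKM in each library. Judged by the steps of their lowest values, the libraries had a relative depth of 0.744 to 1.07, with Th0 replicate 1 set to 1. This depth split by replicate number, with 0.935 to 1.07 in replicate 1 libraries and 0.744 to 0.839 in replicate 2 libraries. Differences between the replicates of a medium thus go along with a difference in estimated depth. The labelled cell type had its markers. All 8 CD4 T cell markers passed the filter used for the tests, and summed to 2023 to 2089 FPKM in iTreg libraries, 1524 to 1599 in Th1 and Th2 libraries and 1573 to 2297 in the libraries with the IL-2 antibody. The 5 B cell markers summed to at most 1.93 FPKM, the 4 natural killer markers to at most 2.02, with Klra8 at 0 throughout, and the 2 CD8 markers to at most 7.78 in any library. These sums also moved with the media. The B cell markers summed to 1.85 to 1.93 FPKM in iTreg and to 0.838 to 1.74 in Th1 and Th2. In the antibody media they summed to 0.236 to 1.61 FPKM. The 2 remaining lists moved as well and reached higher sums than the B cell, natural killer and CD8 lists. The 6 myeloid markers summed to 136.8 to 150.8 FPKM in iTreg, 34.1 to 67.1 in Th1 and Th2 and 25.1 to 98.5 in the antibody media, nearly all of it Ctss, while Lyz2 was at 0 in every library. The 5 dendritic markers summed to 0.20 to 1.04 FPKM in iTreg, 6.89 to 56.0 in Th1 and Th2 and 0.147 to 12.5 in the antibody media, mostly Batf3. Their part in the results was not tested. The labels do not say whether replicates were separate cultures or animals, so the p-values rest on a spread between libraries that may be technical. In such bulk samples, fewer cells that express a gene and less RNA per cell cannot be told apart.

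Il2 RNA was near 0 with added IL-2 and was highest by far in the Th17_23 medium, which held the IL-2 antibody. In iTreg cells Il2 stood at 0.0346 FPKM in replicate 1 and was listed at 0 in replicate 2. The value of replicate 1 equals 1.28 of the estimated steps worth 1 read. Th1 cells had 1.37 and 0.849 FPKM and Th2 cells 6.04 and 2.56 FPKM. Among the media with the IL-2 antibody, Il2 was at 1.64 and 4.11 FPKM in IL27_plus_TGF_beta, at 0.516 and 1.72 FPKM in Th17_b, at 56.2 and 49.0 FPKM in Th17_23 and at 0.906 and 0.946 FPKM in Th0. The iTreg libraries were thus below the other 12, and the Th17_23 libraries above all others by a wide gap. Apart from iTreg and Th17_23, every library lay between 0.516 and 6.04 FPKM, so IL-2 RNA was low in most media after 3 days.

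**Figure D1:**
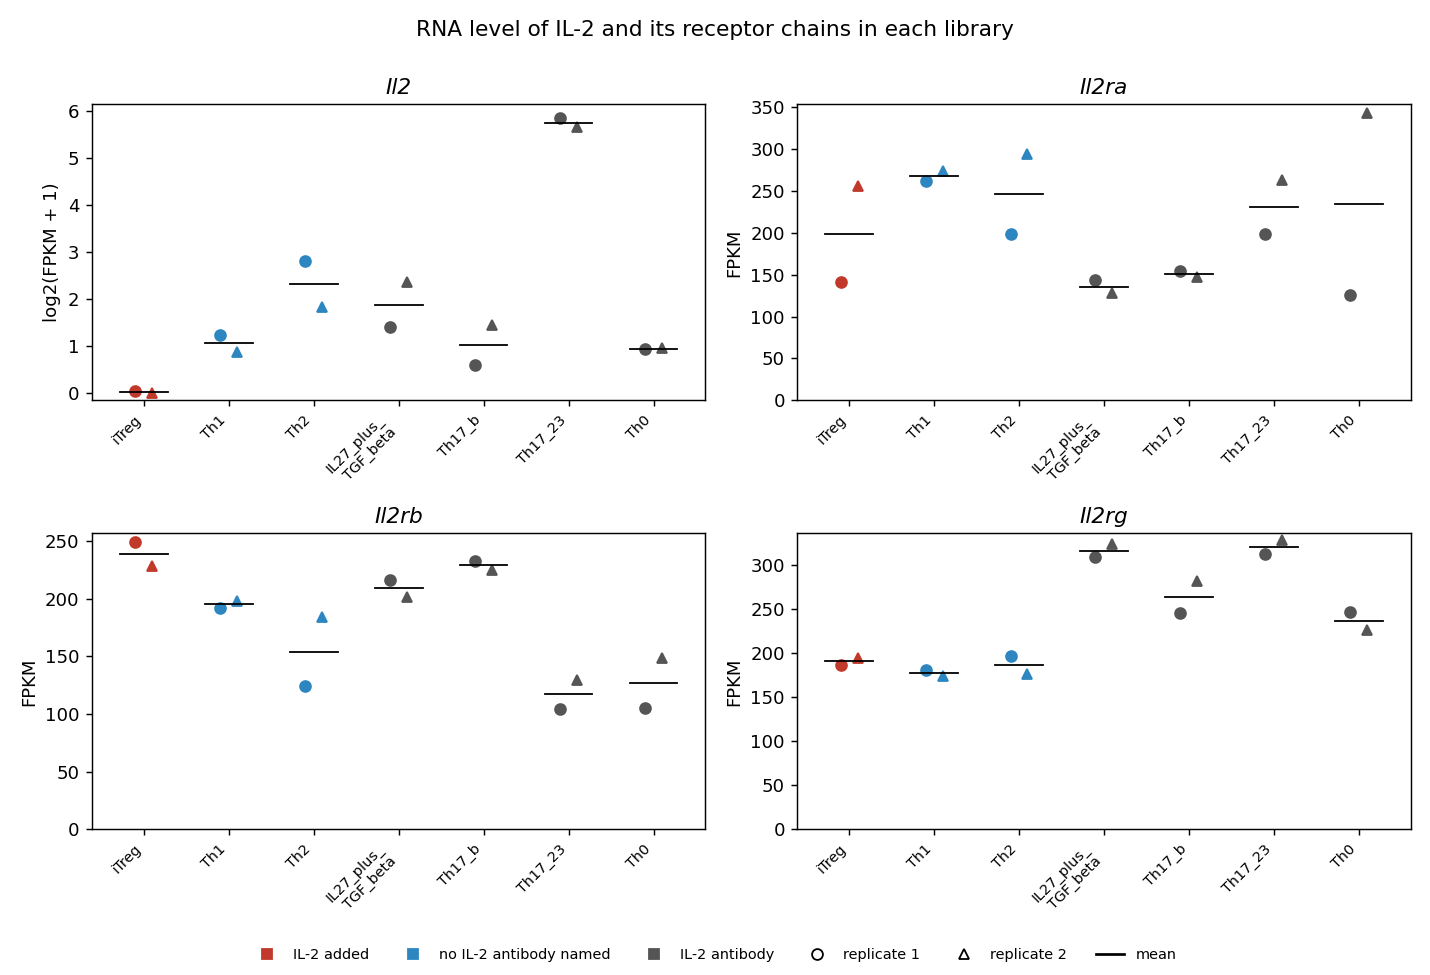
RNA level of Il2 (vertical axis log2(FPKM + 1)), Il2ra, Il2rb and Il2rg (vertical axes FPKM) in each library of the 7 media, with 1 point per library, circles for replicate 1, triangles for replicate 2 and lines for means of the plotted values. Il2 is near 0 in iTreg and highest in Th17_23, and all Il2rg values of the 4 media with an IL-2 antibody (grey) lie above those of the other 3.

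Tests were made with limma on log2(FPKM + 1), in which a change of a low gene is understated, over the 11557 genes that reached a mean of 1 FPKM in any medium. All 4 genes passed this filter; Il2 did so through 5 of the 7 media. The Benjamini-Hochberg adjustment ran over all these genes, and an adjusted p under 0.05 made a call. Calls were common here. Between iTreg and the 4 antibody media, 71.5% of all genes were called (26.1% higher and 45.4% lower in iTreg). Between iTreg and the Th1 and Th2 media 67.8% were called (27.6% higher, 40.1% lower in iTreg), and between Th1 and Th2 and the antibody media 59.2% (23.4% higher, 35.8% lower in Th1 and Th2). The 3 comparisons share libraries. Among the 4 genes, 3, 2 and 3 were called, which is near these shares, so the counts say nothing particular about IL-2 and its receptor, and the sizes and the library values are what follows. The median change of all genes was -0.14, -0.09 and -0.06 on the log2 scale. The standard errors (SE) and p-values of a class comparison rest on the spread between the 2 libraries of a medium. They do not measure the spread between media of a class, and iTreg was the only medium with added IL-2.

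The fall of Il2 in iTreg cells held against both classes. Its log2 change was -2.37 ± 0.31 (SE, limma, adjusted p = 8.8e-05) against the antibody media and -1.67 ± 0.34 (adjusted p = 0.0016) against Th1 and Th2. Without Th17_23, the change against the antibody media was -1.26 (limma, adjusted p = 0.0059). With 0.1 in place of 1 added to each FPKM, the changes were -4.93 and -4.24. Between Th1 and Th2 and the antibody media, Il2 was called lower by -0.70 ± 0.24 (limma, adjusted p = 0.029), but the call rests on Th17_23. Without that medium the change was 0.41 with the opposite sign (adjusted p = 0.19). The groups overlapped, with 0.849 to 6.04 FPKM in Th1 and Th2 libraries and 0.516 to 56.2 FPKM in antibody libraries, and leaving out Th1 replicate 2, Th2 replicate 2, replicate 2 of IL27_plus_TGF_beta or Th17_b, Th17_23 replicate 1 or either Th0 library also ended the call, with changes of -0.41 to -0.70.

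In the order of mean Il2 levels, Th17_23 was followed by Th2, IL27_plus_TGF_beta, Th17_b, Th1, Th0 and iTreg. Of the 21 pairs of media, 13 were called for Il2, where 51.0% of all gene and pair combinations were. Of the 6 neighbouring pairs in that order, Th17_23 over Th2 was called (log2 change 3.42, limma, adjusted p = 8.7e-05). The other 5 were not, Th0 over iTreg among them (0.92, 95% interval 0.05 to 1.79, adjusted p = 0.062), although the libraries of that pair did not overlap.

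Il2ra, the α chain, was the receptor chain whose replicates differed most and for which the fewest pairs of media were called. It stood at 141 and 256 FPKM in iTreg, at 262 and 274 FPKM in Th1 and at 198 and 294 FPKM in Th2. The antibody media gave 143 and 128 FPKM in IL27_plus_TGF_beta, 154 and 147 FPKM in Th17_b, 199 and 263 FPKM in Th17_23, and 126 and 343 FPKM in Th0. Every library was thus well above 100 FPKM, whatever its medium held. Both the lowest and the highest library of the 14 belonged to Th0, and the iTreg range lay within that of Th0. The 4 libraries of IL27_plus_TGF_beta and Th17_b, at 128 to 154 FPKM, were lower than all those of Th1, Th2 and Th17_23.

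Adding IL-2 went with no called change of Il2ra. The log2 change of iTreg was 0.11 ± 0.26 against the antibody media (95% interval -0.48 to 0.69, limma, adjusted p = 0.72) and -0.42 ± 0.28 against Th1 and Th2 (95% interval -1.05 to 0.22, adjusted p = 0.21), and these intervals are wide. The sign of the difference from the antibody media turned without iTreg replicate 2 (-0.13) and without Th0 replicate 1 (-0.038). Th1 and Th2 exceeded the antibody media by 0.53 ± 0.20 (limma, adjusted p = 0.045), with 198 to 294 FPKM against 126 to 343 FPKM. That call was lost without any of 9 single libraries (each library of Th1 and Th2, replicate 2 of IL27_plus_TGF_beta and of Th17_b, each of Th17_23, and Th0 replicate 1), with changes of 0.38 to 0.64. Of 21 pairs of media 1 was called for Il2ra, Th1 over IL27_plus_TGF_beta (0.98, adjusted p = 0.030), and of the 6 neighbouring pairs in its order none.

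The replicate with more Il2ra in iTreg and in Th0, replicate 2 of each, also held more of 3 other genes known to respond to STAT5, which were picked after their values were seen. Cish, an inhibitor of cytokine receptors, was at 19.4 and 86.8 FPKM in replicates 1 and 2 of iTreg and at 60.5 and 171.9 FPKM in Th0. Socs2, an inhibitor of the same family, was at 18.1 and 81.2 FPKM in iTreg and at 22.3 and 61.4 FPKM in Th0. Pim1, a survival kinase, was at 19.0 and 30.5 FPKM in iTreg and at 52.3 and 150.9 FPKM in Th0. Over the whole list of 19 targets, 16 were higher in replicate 2 of iTreg and 17 in replicate 2 of Th0, where 65.9% and 58.5% of all genes were. The exceptions were Gzmb, Tnfrsf9 and Tnfrsf1b in iTreg and Id2 and Tnfrsf1b in Th0. Of 8 feedback inhibitors, the list that holds Cish and Socs2, 8 were higher in replicate 2 of iTreg and 5 in that of Th0. The part of this in the Il2ra result was not tested.

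Il2rb, the β chain, was highest with added IL-2, but not by a clear gap. It stood at 249.5 and 229 FPKM in iTreg, at 192 and 198 FPKM in Th1 and at 125 and 184 FPKM in Th2. The antibody media fell into 2 levels. IL27_plus_TGF_beta had 216 and 202 FPKM and Th17_b 233 and 225 FPKM, whereas Th17_23 had 105 and 129.6 FPKM and Th0 105 and 149 FPKM. The log2 change of iTreg was 0.55 ± 0.14 against the antibody media (limma, adjusted p = 0.0046), although Th17_b replicate 1 exceeded iTreg replicate 2. It was 0.47 ± 0.15 against Th1 and Th2 (adjusted p = 0.017), where the libraries did not overlap. Both calls were lost without iTreg replicate 1 (0.39, adjusted p = 0.095, and 0.31, adjusted p = 0.20, limma), and the call against Th1 and Th2 without Th2 replicate 1 as well (0.36, adjusted p = 0.051). Th1 and Th2 against the antibody media gave 0.08 ± 0.10 (95% interval -0.16 to 0.32, adjusted p = 0.53).

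The Il2rb levels of the media with TGF-β all lay above those of the other media, with a narrow gap to Th1. The 6 libraries of the 3 media with TGF-β (iTreg, IL27_plus_TGF_beta and Th17_b) had 201.9 to 249.5 FPKM, and the other 8 had 104.8 to 198.4 FPKM. This split was noticed after the values were seen and is given as a description. Of the 11557 genes, 513, or 4.44%, had all libraries of those media above the other 8. No TGF-β medium was called different from Th1, which holds no TGF-β. The log2 change was 0.29 for iTreg minus Th1, -0.10 for Th1 minus IL27_plus_TGF_beta and -0.23 for Th1 minus Th17_b (limma, adjusted p = 0.16, 0.66 and 0.28). Among the 3 TGF-β media, iTreg exceeded Th17_b by 0.06 (95% interval -0.32 to 0.45), a sign that turned without iTreg replicate 1 (-0.11) or Th17_b replicate 2 (-0.06). Of the 21 pairs, 11 were called for Il2rb and none of the 6 neighbours in its order, which ran iTreg, Th17_b, IL27_plus_TGF_beta, Th1, Th2, Th0 and Th17_23.

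Il2rg, the common γ chain, was the member that separated the media by the IL-2 antibody. It stood at 187 and 195 FPKM in iTreg, at 181 and 174 FPKM in Th1 and at 197 and 177 FPKM in Th2. All libraries with the IL-2 antibody were higher, with 309.5 and 324 FPKM in IL27_plus_TGF_beta, 246 and 282 FPKM in Th17_b, 313 and 328 FPKM in Th17_23 and 247 and 226 FPKM in Th0. The 6 libraries without the antibody thus reached at most 197.4 FPKM and the 8 with it began at 226.4 FPKM. Of all genes tested, 172, or 1.49%, showed that order of libraries.

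On the log2 scale, iTreg was lower than the antibody media by -0.56 ± 0.07 (limma, adjusted p = 6.5e-05), and Th1 and Th2 were lower by -0.63 ± 0.05 (adjusted p = 1.2e-05). Both calls were kept in every alternative run, among them each single library left out (-0.53 to -0.59 and -0.58 to -0.68). With the libraries scaled to 1 median, which allows for the shift of all genes, the changes were -0.44 and -0.58, and under quantile normalization they were -0.35 and -0.56. Between the 2 classes without the antibody, iTreg and Th1 and Th2 differed by 0.07 ± 0.08 (95% interval -0.11 to 0.25, adjusted p = 0.45); under quantile normalization this was 0.21 and called (adjusted p = 0.0072). The antibody media also differed among themselves. In the order Th17_23, IL27_plus_TGF_beta, Th17_b, Th0, iTreg, Th2 and Th1, 16 of 21 pairs were called and 2 of the 6 neighbours. These were IL27_plus_TGF_beta over Th17_b (0.27, adjusted p = 0.038), lost without either IL27_plus_TGF_beta library or Th17_b replicate 1 (0.16 to 0.30), with no filter (adjusted p = 0.083) and under quantile normalization (0.15), and Th0 over iTreg (0.31, adjusted p = 0.012), lost without iTreg replicate 1 (0.28) or Th0 replicate 1 (0.23).

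**Figure D2:**
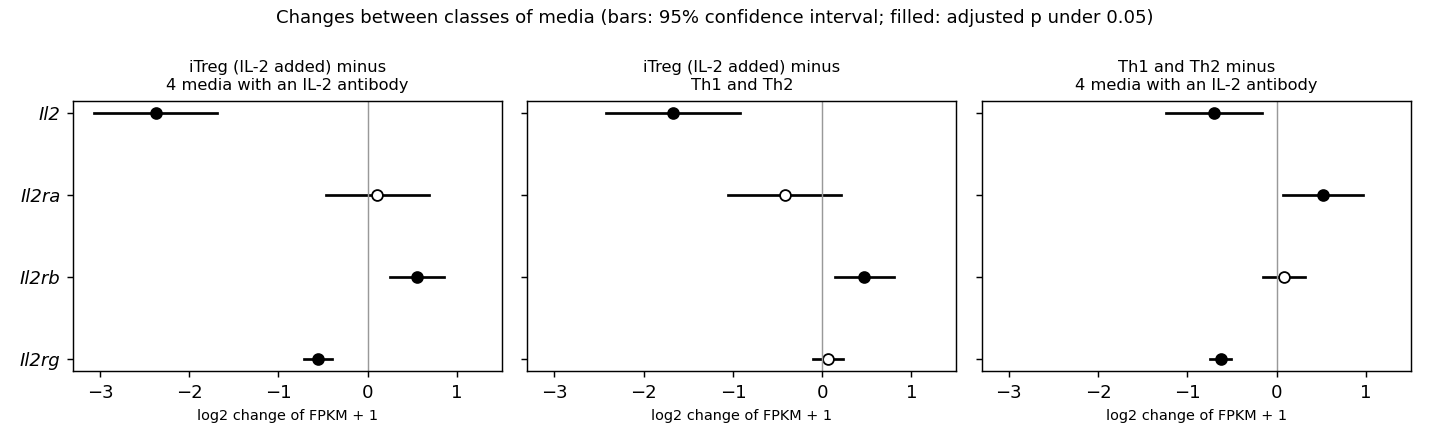
Log2 change of FPKM + 1 (horizontal axis) of the 4 genes (vertical axis) in the 3 comparisons between classes of media, with 95% confidence intervals and filled points for an adjusted p under 0.05. Il2 lies at -2.37 and -1.67 in the comparisons of iTreg, and Il2rg at -0.56 and -0.63 in the comparisons with the antibody media.

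**Figure D3:**
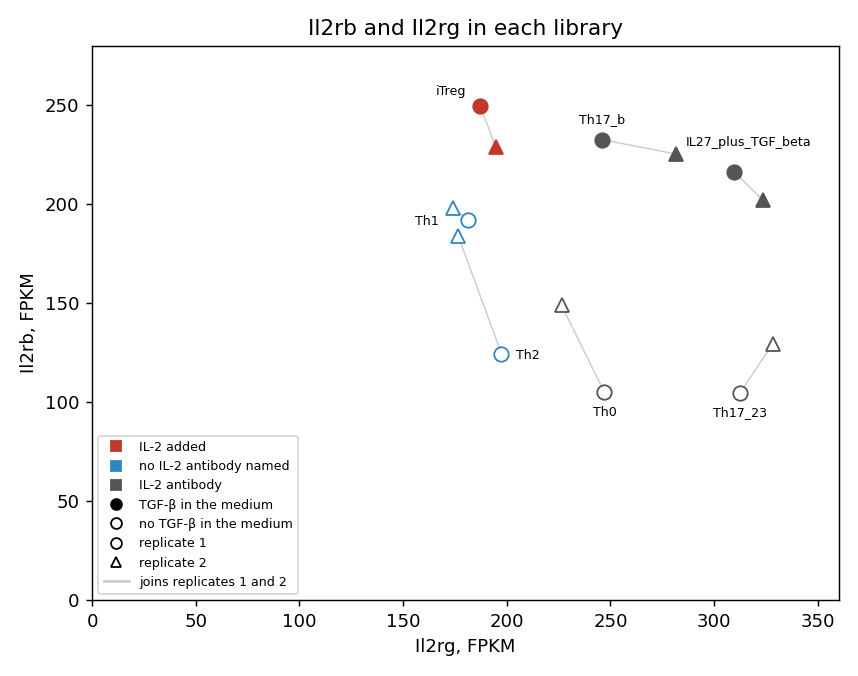
Il2rb (vertical axis, FPKM) against Il2rg (horizontal axis, FPKM) in each of the 14 libraries, with grey lines that join the replicates of a medium and filled points for media that hold TGF-β. The 8 libraries with an IL-2 antibody lie to the right of 226 FPKM of Il2rg, and the 6 libraries with TGF-β lie above 201 FPKM of Il2rb.

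Each medium was also set against Th0, which is the unpolarized medium but itself holds the IL-2 antibody; the 6 comparisons share the Th0 libraries. In iTreg 63.5% of all genes were called. Il2rb was higher there by 0.93 ± 0.17 (limma, adjusted p = 0.0011) and Il2rg lower by -0.31 ± 0.09 (adjusted p = 0.012), a call lost as given above. In Th1, where 13.9% of genes were called, Il2rb was higher by 0.64 (limma, adjusted p = 0.038) and Il2rg lower by -0.41 (adjusted p = 0.015). Both were lost without either Th1 library or Th0 replicate 1 (Il2rb 0.44 to 0.71, Il2rg -0.34 to -0.45). In Th2, where 18.0% were called, Il2 was higher by 1.38 (limma, adjusted p = 0.037) and Il2rg lower by -0.34 (adjusted p = 0.026). The Il2 call was lost without Th2 replicate 1 (0.79) or either Th0 library (1.38 each), and the Il2rg call without Th2 replicate 2 (-0.24), Th0 replicate 1 (-0.26) or Th0 replicate 2 (-0.42).

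With no filter on low genes, the calls of Il2rb in Th1 (adjusted p = 0.14) and of Il2 and Il2rg in Th2 (adjusted p = 0.15 and 0.069, limma) were lost too, and under quantile normalization that of Il2rg in iTreg (-0.12, adjusted p = 0.12). Il2 in iTreg, not called here, was called with 0.1 added to each FPKM (adjusted p = 0.0011).

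In IL27_plus_TGF_beta, where 50.9% of genes were called against Th0, Il2rb was higher by 0.74 (limma, adjusted p = 0.0056) and Il2rg by 0.42 (adjusted p = 0.0031). The Il2rb call was lost without IL27_plus_TGF_beta replicate 1 (0.58) or Th0 replicate 1 (0.54). Il2ra was not called (-0.61, adjusted p = 0.15) but was without Th0 replicate 1 (-1.19, adjusted p = 0.011, limma). In Th17_b, where 54.5% were called, Il2rb was higher by 0.87 (limma, adjusted p = 0.0021), and Il2ra was again called without Th0 replicate 1 alone (-1.04, adjusted p = 0.018). Il2rg was called there under quantile normalization alone (0.23, adjusted p = 0.012, limma). In Th17_23, where 49.3% were called, Il2 was higher by 4.80 ± 0.39 (limma, adjusted p = 1.7e-05) and Il2rg by 0.44 (adjusted p = 0.0030).

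The balance of the chains is given as a ratio of FPKM within a library, with no test. Il2ra exceeded Il2rb in 9 of the 14 libraries. The Il2ra to Il2rb ratio was 0.566 and 1.12 in iTreg, 1.37 and 1.38 in Th1 and 1.59 and 1.60 in Th2. It was 0.662 and 0.636 in IL27_plus_TGF_beta, 0.662 and 0.652 in Th17_b, 1.89 and 2.03 in Th17_23 and 1.20 and 2.30 in Th0. The 3 TGF-β media thus held the lowest ratios, with all 4 libraries under 1 in the 2 of them that held the IL-2 antibody. The Il2rb to Il2rg ratio ran from 0.335 in Th17_23 to 1.33 in iTreg. It was above 1 in 5 libraries, both of iTreg, both of Th1 and replicate 2 of Th2, and under 1 in every library with the IL-2 antibody.

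**Figure D4:**
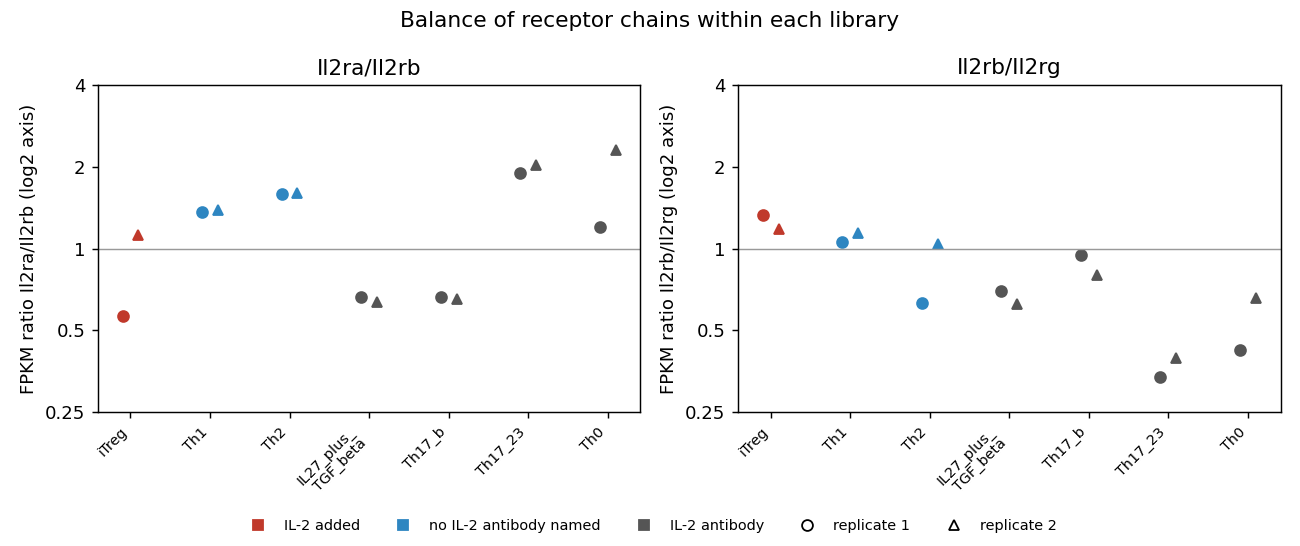
Ratio of FPKM of Il2ra to Il2rb (left) and of Il2rb to Il2rg (right) within each library, on a log2 axis, with 1 point per library and media on the horizontal axis. The Il2ra to Il2rb ratio is under 1 in IL27_plus_TGF_beta and Th17_b, and the Il2rb to Il2rg ratio is under 1 in all 8 libraries with an IL-2 antibody.

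Of 5 other receptor chains that pair with the γ chain, 4 passed the filter. In iTreg, 1 was higher and 3 were lower than in the antibody media, and all 4 were lower than in Th1 and Th2 (median log2 change -0.87 and -1.18), where 40.1% of all genes were lower; the call of Il7r among these 4 was lost in several alternatives. Il15ra, the private chain of the IL-15 receptor, stood at 1.18 to 1.61 FPKM in iTreg, at 5.39 to 15.8 in Th1 and Th2 and at 2.23 to 12.6 in the antibody media, and was lower in iTreg by -2.10 ± 0.14 and -1.69 ± 0.13 (limma, adjusted p = 2.1e-06 and 4.1e-06). Il21r was lower by -1.10 and -1.20 (adjusted p = 1.1e-05 and 3.2e-06). Il7r, the IL-7 receptor chain, was higher in iTreg than in the antibody media by 1.43 ± 0.15 (limma, adjusted p = 2.7e-05), with 15.1 to 30.5 FPKM against 0.188 to 44.8 FPKM, which overlap widely. Il4ra reached 154.7 and 179.7 FPKM in Th2, the medium with IL-4, against at most 76.1 FPKM elsewhere.

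Of the 5 ligands that share the γ chain, Il7, Il9 and Il15 did not pass the filter. Il21, a helper T cell cytokine, was at 0.0177 to 0.0332 FPKM in iTreg, at 0.0753 to 2.13 FPKM in Th1 and Th2 and at 0.0331 to 71.2 FPKM in the antibody media, where Th0 alone was under 33 FPKM. Il4 was at 10.2 and 24.5 FPKM in Th2 and at most 0.166 FPKM in any other library.

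Of 15 genes that carry the IL-2 signal, all tested, 5 were higher and 6 lower in iTreg than in the antibody media (median -0.03), and 6 higher and 4 lower than in Th1 and Th2 (median 0.10). The shares called, 73.3% and 66.7%, are near those of all genes (71.5% and 67.8%), so the counts say nothing particular about these genes. Stat5b, which encodes a form of STAT5, stood at 79.9 to 86.1 FPKM in iTreg, at 40.3 to 50.2 in Th1 and Th2 and at 35.5 to 75.1 in the antibody media, with iTreg higher by 0.82 ± 0.10 and 0.64 ± 0.09 (limma, adjusted p = 5.7e-05 and 0.00013). Pik3r1, the regulatory subunit of PI3-kinase, was higher by 1.78 ± 0.07 and 1.71 ± 0.06 (adjusted p = 6.6e-08 and 7.8e-08). The kinases that bind the chains moved apart. Jak1 was higher in iTreg by 0.35 against the antibody media and by 0.36 against Th1 and Th2 (limma, adjusted p = 0.00018 and 0.00029). Jak3 was lower in iTreg by -0.38 against the antibody media and by -0.26 against Th1 and Th2 (limma, adjusted p = 0.00071 and 0.012), the call against Th1 and Th2 being lost without iTreg replicate 1 (-0.14) and under quantile normalization (-0.11).

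Most of the genes listed here as IL-2 and STAT5 targets were lower in the medium with added IL-2. The list leaves out Il2ra, Cish and Socs2, named above as responding to STAT5. Against the antibody media, Socs2 (log2 change 3.30) and Cish (1.00) were called higher in iTreg, and Il2ra (0.11) was not called. The Cish call was lost without iTreg replicate 2 (0.31), without the table covariate and with no filter. Against Th1 and Th2, Cish was called lower (-1.77), and Socs2 (0.38) and Il2ra (-0.42) were not called. Of the 19 listed targets tested, 12 were lower and 1 higher in iTreg than in the antibody media (median -0.59). Against Th1 and Th2, 15 were lower and 2 higher in iTreg (median -1.47). The lower ones were 63.2% and 78.9% of the targets, against 45.4% and 40.1% of all genes, and the share called in either direction was 68.4% against the antibody media, where that of all genes was 71.5%. In Th1 and Th2, 12 were higher and 2 lower than in the antibody media (median 0.69), or 63.2% higher, against 23.4% of all genes. These shares were not tested against each other. Cdk6, a cell cycle kinase, stood at 1.68 to 2.80 FPKM in iTreg, 12.6 to 29.3 in Th1 and Th2 and 11.1 to 33.5 in the antibody media, with changes of iTreg of -2.61 ± 0.20 and -2.78 ± 0.18 (limma, adjusted p = 3.9e-06 and 1.5e-06). Nfil3, a transcription factor, was lower in iTreg than in Th1 and Th2 by -3.33 ± 0.11 (adjusted p = 4.4e-08). Tnfrsf1b, the TNF receptor 2 of regulatory T cells, was the member higher in iTreg in both comparisons, with 58.1 to 75.8 FPKM against 12.2 to 23.7 in Th1 and Th2 and 10.1 to 27.2 in the antibody media (2.04 ± 0.10 against the antibody media, limma, adjusted p = 3.1e-07). Without single libraries, between 9 and 13 targets were lower in iTreg than in the antibody media.

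Genes that IL-2 is known to lower were mostly higher in that medium. All 8 were called higher in iTreg than in the antibody media (median 1.13), and 6 were higher and 1 lower than in Th1 and Th2 (median 1.14). Of all genes, 26.1% and 27.6% were higher in these comparisons. Klf2, a factor of quiescent T cells, stood at 72.7 and 73.3 FPKM in iTreg, at 10.2 to 33.8 in Th1 and Th2 and at 2.45 to 42.4 in the antibody media, with changes of 1.93 ± 0.18 and 2.63 ± 0.16 (limma, adjusted p = 1.4e-05 and 1.2e-06). Il6ra, the IL-6 receptor chain, was higher by 1.85 and 1.82 (adjusted p = 5.4e-07 and 3.9e-07). Bcl6, the follicular helper factor, was higher in iTreg than in Th1 and Th2 by 3.08 ± 0.24 (adjusted p = 4.8e-06), with 12.8 to 29.9 FPKM against 1.06 to 1.84 FPKM. Its call against the antibody media was weak (0.57 ± 0.22, limma, adjusted p = 0.039). IL27_plus_TGF_beta, with 47.9 and 49.0 FPKM, exceeded both iTreg libraries, and Th17_b, with 26.5 and 24.6 FPKM, lay between them. That call was lost without iTreg replicate 1 (0.12), without replicate 1 of IL27_plus_TGF_beta or Th17_b or replicate 2 of Th17_23 or Th0 (0.51 to 0.55), without Th17_23 (0.41), without the table covariate and with no filter, and the sign turned without Th0 (-0.19); 7 of the 8 genes were then called. The 1 gene lower than in Th1 and Th2 was Il7r, counted above among the receptor chains too (-0.42, adjusted p = 0.048), a call lost without iTreg replicate 1 (-0.074), either Th1 library or Th2 replicate 1, and with no filter, other scalings, no trend, the highest transcript or no table covariate.

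Of 8 feedback inhibitors of the receptor, all tested, 4 were higher and 3 lower in iTreg than in the antibody media (median 0.04), and 2 were higher and 4 lower than in Th1 and Th2 (median -0.51). The shares called were 87.5% and 75%, against 71.5% and 67.8% of all genes, so only the values of single inhibitors are described. Without single libraries, the higher ones numbered 2 without iTreg replicate 2 against the antibody media, and 1 to 4 against Th1 and Th2. Socs2 was under 0.38 FPKM in IL27_plus_TGF_beta and Th17_b, 2.17 and 3.58 FPKM in Th17_23 and from 18.1 FPKM, in iTreg replicate 1, upwards in all other libraries, Th0 included. Cish showed the same low pair, at 2.68 and 3.70 FPKM in IL27_plus_TGF_beta and 8.75 and 12.3 FPKM in Th17_b, against 78.1 to 228.7 FPKM in Th1 and Th2. These are the media with the lowest Il2ra as well. Socs3, which is induced by IL-6 type cytokines, was lower in iTreg by -2.04 ± 0.18 against Th1 and Th2 and by -2.43 ± 0.16 against the antibody media (limma, adjusted p = 1.0e-05 and 2.0e-06).

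**Figure D5:**
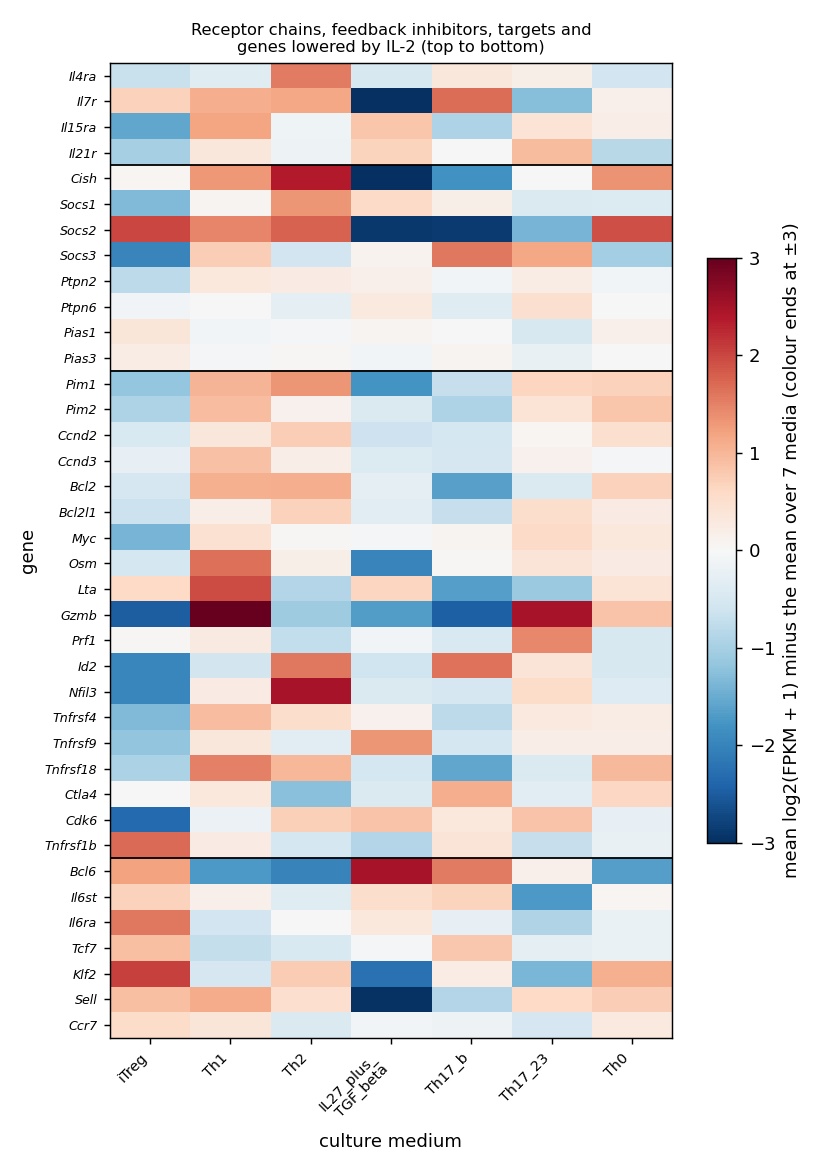
Mean log2(FPKM + 1) of each medium minus the mean over the 7 media, as colour, for receptor chains of the γ chain family, feedback inhibitors, IL-2 and STAT5 targets and genes lowered by IL-2 (vertical axis, separated by lines), over the 7 media (horizontal axis). Cish and Socs2 are lowest in IL27_plus_TGF_beta and Th17_b, and Klf2 and Il6ra are highest in iTreg.

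Of 11 factors tested that are known to drive Il2, 2 were higher and 3 lower in iTreg than in the antibody media, and 2 higher and 3 lower than in Th1 and Th2; without single libraries, the lower ones numbered up to 5 against the antibody media (without Th0 replicate 1) and as few as 1 against Th1 and Th2 (without either iTreg library, Th1 replicate 2 or Th2 replicate 2). Junb, a subunit of AP-1, stood at 39.9 and 88.3 FPKM in iTreg and was highest in Th17_23, at 210.8 and 299.5 FPKM, as was Il2. In Th17_23 against Th0, Junb and Rela were called higher and Pou2f1 lower, and 8 of the 11 were not called (median log2 change 0.22). The Th0 replicates differed widely for some of these genes, as for Egr1 at 40.0 and 123.1 FPKM. A missing call thus does not show that a factor was unchanged. The share called was 27.3%, against 49.3% of all genes. Of 9 restraining factors tested, 4 were higher and 2 lower in iTreg, both against the antibody media and against Th1 and Th2. The share called was 45.5% of the driving and 66.7% of the restraining factors in each, below or near the 71.5% and 67.8% of all genes. Foxp3, the regulatory T cell factor, which is known to repress Il2, stood at 96.5 and 104.2 FPKM in iTreg, against at most 0.651 FPKM in Th1 and Th2 and at most 1.83 FPKM in the antibody media. Tob1, an antiproliferative factor, was higher by 1.04 and 0.85 (limma, adjusted p = 1.6e-05 and 2.6e-05), and Cblb, a ubiquitin ligase that limits T cell activation, was lower by -1.45 and -0.77 (adjusted p = 1.8e-06 and 4.3e-05). Of 11 activation genes, 3 were higher and 5 lower in iTreg than in the antibody media, and 1 higher and 6 lower than in Th1 and Th2, so that 72.7% and 63.6% were called, near the shares of all genes. The higher ones numbered 5 against the antibody media without iTreg replicate 1, and 2 against Th1 and Th2 without Th1 replicate 1. Myc and Tnfrsf9, which also count as targets, were lower in iTreg in both.

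Genes whose levels were most like those of each member were ranked by Pearson correlation over the 14 libraries, as a description without a test. The ranking covered about 4180 genes whose media means spanned a log2 of 1 or more. Genes without a symbol of their own, predicted genes, ribosomal protein genes and small RNAs were skipped. Levels were first centred on the mean of their table. The libraries share media and scaling, so many genes can rank high. The closest genes to Il2 were Zfp703 (0.96), Ddt (0.948), Epb41l4b (0.947), Kazn (0.934) and Sulf2 (0.932). Il2 was far higher in Th17_23 than elsewhere, so these values rest largely on that medium. Epb41l4b and Kazn were low genes, with at most 1.477 and 1.525 FPKM in any library. For Il2ra they were Csrnp1 (0.885), Lama5 (0.826), Tgm1 (0.811), Pim1 (0.808) and Tfpi (0.80), the lowest values of the 4. For Il2rb they were Ppp1r16b (0.923), Ankrd50 (0.915), Ctsw (0.885), Ctla2a (0.882) and Mbnl2 (0.874). For Il2rg they were Pdia3 (0.947), H3f3b (0.936), Nedd8 (0.931), Rabggta (0.922) and Pdf (0.921).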

How the data were processed

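Per the labels' protocols, total RNA of the cultured CD4+ T cells went into a TruSeq library kit. The submitters' processing notes name the build mm9, TopHat2 2.0.3 and Cufflinks 1.3.0, with no role given. The authors deposited FPKM values in 2 tables, 1 with replicate 1 and 1 with replicate 2 of every medium; how they were scaled, and the counting of shared reads, are not given in the sources used here. FPKM give no read totals, so counting error is unknown.

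The 30028 transcripts of each table were named mostly (96.7%) through their accession in a reference of another build, 241 by the symbol in the table and 739 by their own identifier, and FPKM were summed to 23769 genes. The 11557 genes that reached a mean of 1 FPKM in any medium were fitted with limma 3.58.1 in R 4.3.3 on log2(FPKM + 1), over 14 libraries with the table as a covariate (6 residual and 3.34 prior degrees of freedom, mean-variance trend). P-values are two-sided, with Benjamini-Hochberg adjustment and a threshold of 0.05. The procedure was tested on simulated data with independent noise in each library and known shifts of 200 genes in iTreg. The simulation held no other differences between media and no shared deviations of libraries, so it does not test how the calls stand up to these.

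Comparisons were 3 between classes of media by IL-2 content and 21 between pairs of media; alternatives were run for the 3, for the 6 against Th0 and for the 3 among TGF-β media. The members and gene lists were chosen with earlier results of these data known. Of each list, up to 4 members with the largest change among those called with the same direction in both tables could be named, in each class comparison. The levels of Cish, Socs2 and Pim1 by replicate, of Il4ra and Junb by medium, and of Jak1 and Jak3, were chosen outside that rule. Promoter windows are from RefSeq (GRCm38.p6) and were used for sequence alone.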

Additional observations from a re-analysis of the deposited data

How the results depend on the processing

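The alternatives changed the filter (none, or 5 FPKM), the pseudocount (0.1), the scaling (to 1 median, or by quantiles), the transcript (the highest of a gene), the trend (none) and the table covariate (none), left out each of the 14 libraries, and took, chosen after the data were seen, the antibody media without Th17_23 and without Th0. Between classes of media, 193 member values kept their direction and side of the threshold, 24 were no longer called, 1 was newly called and 6 changed sign; among pairs of media these numbers were 377, 33, 7 and 15. The counts of all genes called stayed within 1.5 times in all 56 values, and 46 of the counts over lists did not, against 584 that did.

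Il2 in iTreg and Il2rg against the antibody media kept their calls throughout. For Il2 between Th1 and Th2 and the antibody media, the call was lost with a pseudocount of 0.1 (-0.69, limma, adjusted p = 0.12) and with no filter (-0.70, adjusted p = 0.11), and the change was 0.41 without Th17_23; single libraries left out gave -0.998 to -0.41. For Il2ra in that comparison, the call was lost without the table covariate, which is also the replicate block (0.53, limma, adjusted p = 0.097), and with no filter (0.53, adjusted p = 0.15); single libraries gave 0.38 to 0.67. Il2ra of iTreg against the antibody media ran from -0.13 to 0.35 over single libraries. Il2rb of iTreg gave 0.39 to 0.72 against the antibody media and 0.31 to 0.64 against Th1 and Th2, where it was not called with no filter (0.47, limma, adjusted p = 0.073). Il2rb of Th1 and Th2 against the antibody media gave -0.035 to 0.20, -0.079 without Th17_23 and -0.045 without Th0. Il2rg of iTreg against Th1 and Th2 was called under quantile normalization (0.21). No filter tests more genes; the other causes were not tested.

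Among pairs of media, uncalled changes that turned sign are given with their range over single libraries left out. For Il2ra these were iTreg against Th0 (-0.71 to 0.45, and 0.039 under quantile normalization), Th1 (-0.21 to 0.94), Th2 (-0.37 to 0.79), Th17_b (-1.04 to 0.11) and Th17_23 (-0.44 to 0.71) against Th0, where a Th0 library decided each sign or, for iTreg, also iTreg replicate 1, and IL27_plus_TGF_beta against Th17_b (-0.50 to 0.20). For Il2 they were Th1 against Th0 (-0.11 to 0.35) and Th17_b against Th0 (-0.40 to 0.55). For Il2rb they were Th17_23 against Th0 (-0.30 to 0.096), iTreg against Th17_b (-0.11 to 0.23) and IL27_plus_TGF_beta against Th17_b (-0.28 to 0.022).

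Of the counts over lists, those that moved are given with their range over single libraries left out. Against the antibody media, iTreg had 2 to 4 higher feedback inhibitors, 1 to 2 higher targets (2 without Th17_23 or Th0), 2 to 5 lower driving factors of Il2 (and 1 higher one without Th17_23) and 2 to 5 higher activation genes (5 without Th0). Against Th1 and Th2, iTreg had 1 to 2 lower γ chain ligands, 1 to 4 higher feedback inhibitors, 1 to 3 higher targets, 0 to 1 lower genes that IL-2 lowers (0 without the replicate block), 1 to 3 lower driving factors (1 without the block) and 1 to 2 higher activation genes. Against the antibody media, Th1 and Th2 had 0 to 1 lower receptor chains (1 without Th0), 0 to 2 lower feedback inhibitors (1 without the block or Th17_23), 1 to 2 higher and 3 to 6 lower driving factors (3 lower without Th17_23), 1 lower activation gene without the block and 0 without Th17_23, and, without Th17_23, 1 lower target and 4 lower genes that IL-2 lowers.

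Same-numbered libraries deviated together only in part: over 21 pairs of media, replicate differences correlated at -0.13 to 0.36, above 0.1 in 15, so the data do not show that the numbers pair cultures. The table covariate still blocks by number in every fit but the one without it. Estimated depth did split by number, as given above. Without the replicate block, Il2rb of Th1 against Th0 also lost its call (0.64, limma, adjusted p = 0.068). With 2 libraries per medium and FPKM that carry no read totals, the depth behind Il2 in iTreg rests on an estimated step.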

Other observations

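The replicates of Th0 and iTreg differed in further genes beside Il2ra. These were chosen after their values were seen and carry no test. Batf3, a transcription factor of activated T and dendritic cells, was at 0.101 and 0.883 FPKM in replicates 1 and 2 of iTreg and at 0.802 and 12.0 FPKM in Th0. Junb was at 39.9 and 88.3 FPKM in iTreg and at 56.6 and 163.5 FPKM in Th0, and Tnfrsf18, the regulatory T cell marker GITR, was at 57.7 and 81.7 FPKM in iTreg and at 182.9 and 367.8 FPKM in Th0. Myc was at 19.2 and 50.6 FPKM in iTreg and at 84.2 and 129.3 FPKM in Th0. Bcl6, a gene that IL-2 is known to lower, went the other way, with 29.9 and 12.8 FPKM in iTreg and 2.77 and 1.14 FPKM in Th0. Whether these libraries came from separate cultures is not given in the labels.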
